A study of Mus musculus with 3072 samples.

Results

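The 39 genes described here encode proteins that copy DNA in S phase, and they were taken by symbol from a single-cell expression matrix of 55291 gene symbols. All 39 symbols were present, each on 1 row. The list holds the Mcm2 to Mcm7 helicase, origin-licensing factors, helicase activators and fork proteins, polymerases and primase, and the sliding clamp and its loader. It also holds strand-joining enzymes, enzymes of nucleotide supply and uracil removal, and factors of chromatin assembly and histone mRNA.

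Wild-type C57BL/6 mice that carried transplanted barcoded stem cells gave single bone marrow cells for Smart-seq2, a full-length method without molecular identifiers. Of the 8 mice, 4 were controls taken at week 32 after transplantation and 4 were platelet-depleted mice taken at week 28. The labels used here do not name the depleting agent or the sorting gates, and all groups share the transplant and the barcode. Each mouse gave cells sorted as HSC, CFU and MkP, names that the labels do not spell out. Treatment coincided with week and with the experiment code in all 8 mice, so every treatment contrast also compares weeks and codes, and the 3 cannot be told apart.

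Of 3069 wells with counts, 2668 were kept: 697 HSC, 647 CFU and 1324 MkP. Summed per mouse, they held 68792249 to 327869432 counts. Kept cells had 24105 to 6910788 counts, with a median of 1718305. A list of 8 HSC markers summed to 618 to 1281 CPM (counts scaled to the library's total) in HSC and to 3.62 to 7.38 CPM in CFU. The 8 megakaryocyte markers summed to 3761 to 6101 CPM in MkP and the 8 erythroid markers to 10970 to 15188 CPM in CFU, and each of these 3 lists was highest in that population in all 8 mice. In these sums, fewer cells of a type and less RNA per cell cannot be told apart. In CFU the 6 myeloid markers ranged from 1.92 to 1120 CPM over mice, and the 5 neutrophil markers reached 3014 CPM in control mouse 3. The neutrophil markers also reached 482 CPM in HSC of depleted mouse 4, against 1.42 to 7.21 CPM in the other HSC sums. The 5 B cell markers reached 164 CPM in CFU of depleted mouse 2. In MkP the myeloid markers reached 359 CPM in control mouse 2 and the 5 mast and basophil markers 814 CPM in depleted mouse 2. The part of such cells in the values below was not tested. Control and depleted cells differed in the number of genes detected. The median per mouse was 6557 to 7171.5 genes in control MkP and 5509 to 6180 in depleted MkP, and 8301 to 8508.5 against 7579 to 8242 in CFU, without overlap. In HSC it was 5700 to 6808 against 5329.5 to 5758, with control mouse 1 the lowest of its group and the shallowest HSC library.

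DNA replication starts when origins are licensed. The origin recognition complex, Cdc6 and Cdt1 load the Mcm2 to Mcm7 ring onto DNA in G1, and geminin (Gmnn) blocks further loading once S phase has begun. Cdc45 and the GINS proteins then turn the ring into an active helicase, primase and polymerase alpha start each strand, and the clamp Pcna, set in place by the Rfc loader, holds the polymerases on DNA. Most of these genes are transcribed in late G1 under E2F factors, and long-term stem cells of the marrow are known to divide rarely while committed progenitors divide often.

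Promoter stretches are shown first because the members moved together between populations and because E2F factors are the textbook regulators of these genes. RefSeq promoters of build GRCm38.p6, from 250 bases before to 50 bases after the transcript start, were found for 31 members. No entry was matched for Mcm4, Gins1, Gins2, Rfc2, Pole, Prim2, Tipin and Gmnn. The words TTTCCCGC, TTTGGCGC, TTCCCGCC and TTGGCGCC were searched on both strands; the first and the third overlap in 7 letters, as do the second and the fourth, so 1 stretch can match more than once. At least 1 word lay in a promoter of 15 of the 31 members (48.4%), against 1174 of all 27025 symbols in the table (4.34%). A match describes letters and is not evidence of binding. Stretches before the start are printed for 6 of these members, read along the gene's strand with the matched letters in capitals.
Mcm6 (chr1:128359725-128359835, minus strand): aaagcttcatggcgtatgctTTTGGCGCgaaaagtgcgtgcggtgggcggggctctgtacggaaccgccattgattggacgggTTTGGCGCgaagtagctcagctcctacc
Mcm5 (chr8:75109340-75109387, plus strand): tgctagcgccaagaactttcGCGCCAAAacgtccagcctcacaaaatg
Mcm7 (chr5:138172021-138172068, minus strand): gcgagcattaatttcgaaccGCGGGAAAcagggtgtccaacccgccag
Cdc6 (chr11:98907993-98908040, plus strand): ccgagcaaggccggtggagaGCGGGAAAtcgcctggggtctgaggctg
Rrm1 (chr7:102441608-102441655, plus strand): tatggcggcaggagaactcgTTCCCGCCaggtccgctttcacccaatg
Pola1 (chrX:93632266-93632314, minus strand): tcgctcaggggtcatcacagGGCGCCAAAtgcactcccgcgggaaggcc
Mcm6 held TTTGGCGC on its own strand at 2 places, 110 and 47 bases before the start. Mcm5 held the same word and Mcm7 and Cdc6 held TTTCCCGC, each on the opposite strand. Gins3, Prim1 and Chaf1a also held a match before the start, and their stretches are not printed. In Mcm3, Cdt1, Pold1, Rfc3, Rfc4 and Lig1 the matches began at or after the start and are not printed.

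The populations were compared first, on raw counts added per mouse. Levels are CPM after TMM scaling of the 24 sums, and differences are log2 fold changes from the quasi-likelihood test of edgeR, with p-values adjusted by the Benjamini-Hochberg method over the 18611 genes that passed the filter on low counts. All 39 members passed that filter in this and every other comparison. The replication genes were lowest in HSC, intermediate in MkP and highest in CFU. Their summed level was 2414 to 6126 CPM in the 8 HSC sums, 8097 to 8791 CPM in MkP and 14784 to 16303 CPM in CFU, with no overlap between populations.

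In MkP against HSC, 39 of 39 members were higher, where 17.9% of all genes tested were called higher. The members' median log2 fold change was 1.26 (range 0.48 to 2.13), beside 0.01 over all genes. In CFU against HSC, again 39 of 39 were higher, against 29.7% of all genes called higher. Their median was 2.18 (range 0.61 to 4.32), beside −0.20 over all genes. Relative log expression size factors moved that last median to −0.31 and left all 39 members called higher. In CFU against MkP, 33 members were higher, Rfc2 was lower, and 5 (Mcm6, Ung, Pola1, Pold1 and Prim1) were not called; 24.5% of all genes were called higher and 32.3% lower. The median there was 0.98 (range −0.73 to 2.64), beside −0.19 over all genes.

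The order HSC, MkP, CFU also held inside the single animals. It was met in each of the 8 mice by 33 of the 39 members. The other 6 were Rfc2, Rfc3, Ung, Pola1, Pold1 and Pole. Every member was higher in CFU than in HSC in 8 of 8 mice. These orders inside mice were not counted over all genes, so no share stands beside them. The 8 CFU values lay wholly above the 8 HSC values for 36 members, where 18.4% of all genes did so, and the 8 MkP values lay wholly above those of HSC for 31 members, against 6.35% of all genes. The 8 CFU values lay wholly above those of MkP for 32 members, against 15.4%.

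**Figure D1:**
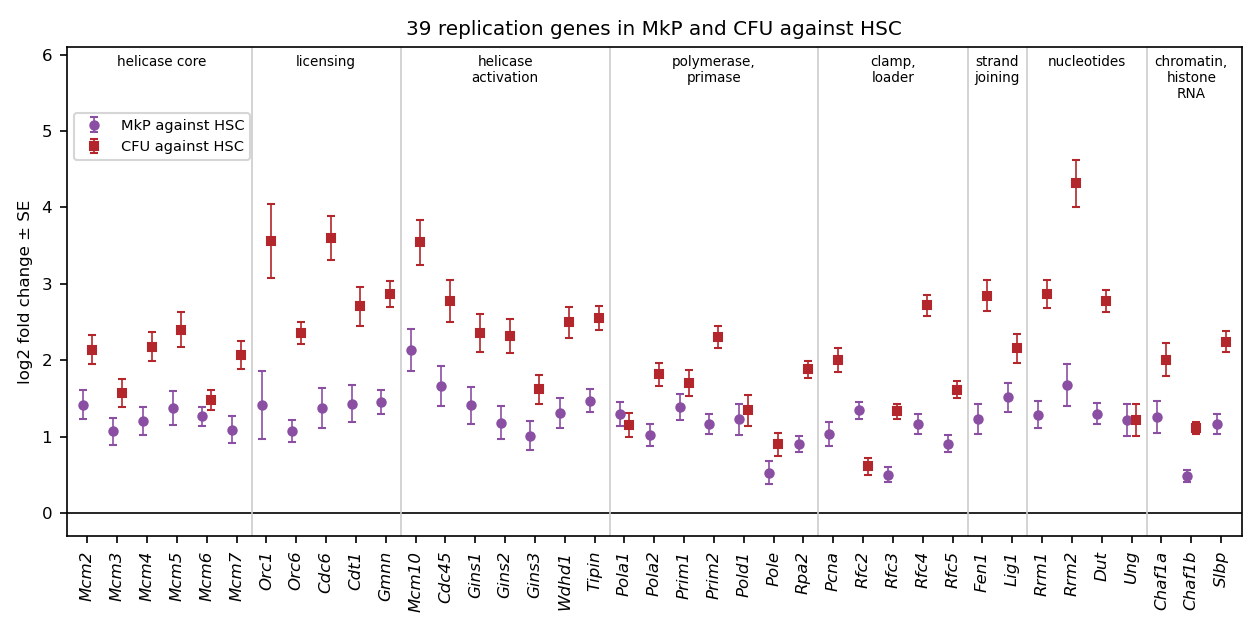
Log2 fold changes (vertical axis, ± SE) of the 39 replication genes in MkP against HSC (circles) and CFU against HSC (squares), from sums of 8 mice per population, grouped by role. Every value is above 0, CFU lies above MkP for most genes, and the order is turned for Rfc2 (1.35 in MkP, 0.61 in CFU) and Pola1 (1.30 and 1.15).

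Within the helicase ring, the fitted differences between populations varied in size among the Mcm genes. Mcm2 had 99.1 to 335 CPM in HSC (median 180), 449 to 617 CPM in MkP (median 539) and 763 to 924 CPM in CFU (median 874). Its populations did not overlap, and it was 2.68-fold higher in MkP than in HSC (log2 1.42, SE 0.18, adjusted p = 2.61e-06) and 1.64-fold higher in CFU than in MkP (log2 0.72, SE 0.18, adjusted p = 0.00166). Mcm6 had 291 to 650 CPM in HSC (median 360), 844 to 1036 CPM in MkP (median 989) and 988 to 1213 CPM in CFU (median 1143). Its MkP and CFU values overlapped. It was 2.41-fold higher in MkP than in HSC (adjusted p = 7.76e-08), and CFU against MkP gave log2 0.21 (SE 0.12, adjusted p = 0.150). A fit of the MkP and CFU sums alone called that difference, at log2 0.20 with an edgeR adjusted p of 9.36e-04.

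Of the other subunits, Mcm5 rose by log2 1.38 (SE 0.22) from HSC to MkP and 1.03 (SE 0.22) from MkP to CFU. Mcm4 gave 1.21 and 0.97, and Mcm7 1.09 and 0.98. Mcm3 gave 1.07 (SE 0.18) and 0.50 (SE 0.18, adjusted p = 0.0187), and with the stricter floor of 8 CPM its last step was no longer called (adjusted p = 0.0550). The protein ring holds its subunits in equal parts, while their RNA steps ranged from 0.21 to 1.03 on the log2 scale between MkP and CFU. The contrasts between these Mcm genes were not tested.

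Among the origin-licensing genes, Cdc6 and Orc1 differed most between MkP and CFU. Cdc6, the ATPase that recruits the helicase to origins, had 11.8 to 69.7 CPM in HSC (median 29.6), 69.8 to 106 CPM in MkP (median 84.9) and 355 to 443 CPM in CFU (median 427). It was 2.59-fold higher in MkP than in HSC (log2 1.38, SE 0.27, adjusted p = 3.07e-04) and 4.66-fold higher in CFU than in MkP (log2 2.22, SE 0.27, adjusted p = 2.37e-07). Orc1, the regulated subunit of the origin recognition complex, was the scarcest member in HSC, with 0.222 to 13.5 CPM, against 11.95 to 23.8 CPM in MkP and 70.7 to 93.2 CPM in CFU. Its HSC and MkP values overlapped. Its difference between them was 1.41 (SE 0.44, adjusted p = 0.0168), and from MkP to CFU 2.15 (SE 0.45, adjusted p = 2.72e-04). Without depleted mouse 3 the MkP against HSC difference of Orc1 was not called (adjusted p = 0.0569).

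Cdt1, which loads the ring together with Cdc6, had a median of 49.5 CPM in HSC, 159 CPM in MkP and 389 CPM in CFU. Its inhibitor Gmnn had 18.3 to 59.8 CPM in HSC, 80.9 to 105.4 CPM in MkP and 231 to 282 CPM in CFU. Both rose at each step, Cdt1 by log2 1.43 and 1.27 and Gmnn by 1.46 and 1.42. From HSC to CFU the loader gave 2.71 (SE 0.25) and its inhibitor 2.87 (SE 0.17), a pair of values closer than their SE. Orc6, another origin subunit, gave 1.08 and 1.28 at these steps.

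**Figure D2:**
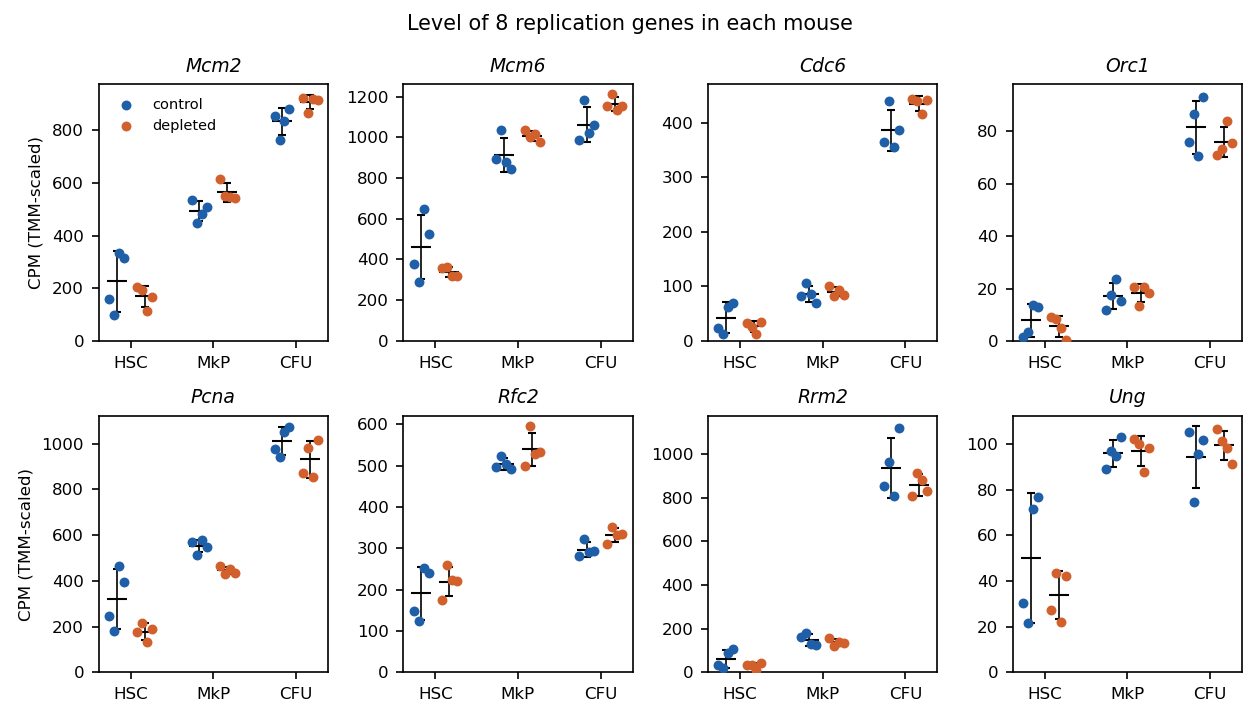
CPM after TMM scaling (vertical axes, from 0) of 8 replication genes in HSC, MkP and CFU, with 1 point per mouse (blue control, orange depleted) and bars for the mean ± SD of 4 mice. Rrm2, Cdc6 and Orc1 stand far higher in CFU than elsewhere, Mcm6 and Ung are close to level between MkP and CFU, and Rfc2 is highest in MkP.

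Apart from Tipin, the helicase activators and fork proteins were also scarce in HSC. Mcm10, which helps to start the helicase, showed the largest MkP against HSC difference of all members. It had 3.82 to 33.5 CPM in HSC (median 11.1), 59.4 to 72.8 CPM in MkP and 154 to 191 CPM in CFU. It was 4.39-fold higher in MkP than in HSC (log2 2.13, SE 0.28, adjusted p = 2.96e-06) and 11.7-fold higher in CFU than in HSC. Cdc45 had a median of 25.96 CPM in HSC, 81.2 CPM in MkP and 171 CPM in CFU, with log2 differences of 1.66 from HSC to MkP and 1.12 from MkP to CFU. Gins1, Gins2 and Gins3 differed between CFU and HSC by 2.35, 2.32 and 1.62 on the log2 scale, and the fork proteins Wdhd1 and Tipin by 2.50 and 2.55.

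Of the 5 members not called between CFU and MkP, 3 belong to polymerases and primase: Pola1, Pold1 and Prim1. Pola1, the catalytic subunit of polymerase alpha, had 23.2 to 88.3 CPM in HSC, 92.4 to 179 CPM in MkP and 79.6 to 146 CPM in CFU. It was higher in MkP than in HSC (log2 1.30, SE 0.16, adjusted p = 1.21e-06), and CFU against MkP gave −0.15 (SE 0.16, adjusted p = 0.436). Pold1, Pole and Prim1 gave 0.12, 0.37 and 0.32 there, of which Pole was called (adjusted p = 0.0347). Prim1 was higher in CFU than in MkP in 8 of 8 mice. A fit of the MkP and CFU sums alone called Prim1, at log2 0.30 with an edgeR adjusted p of 6.06e-05. That call of Pole was lost without control mouse 4, depleted mouse 1 or depleted mouse 2 (adjusted p = 0.0669, 0.108 and 0.0639) and under 3 other settings. The primase subunit Prim2 and the alpha subunit Pola2 rose by 1.14 and 0.80 from MkP to CFU, and the single-strand binding subunit Rpa2 by 0.98. Catalytic and accessory subunits of 1 enzyme therefore had different RNA differences between CFU and MkP, and these contrasts between genes were not tested.

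The clamp rose at each step, while 1 subunit of its loader was highest in MkP. Pcna had 131 to 467 CPM in HSC (median 204), 432 to 578 CPM in MkP (median 490) and 856 to 1074 CPM in CFU (median 979). It rose by log2 1.03 (SE 0.16, adjusted p = 1.64e-05) from HSC to MkP and by 0.97 (SE 0.15, adjusted p = 9.56e-06) from MkP to CFU. Rfc2, a loader subunit, had 124 to 261 CPM in HSC (median 222), 493 to 597 CPM in MkP (median 514) and 281 to 351 CPM in CFU (median 317). Rfc2 was higher in MkP than in CFU in 8 of 8 mice with no overlap, where 16.3% of all genes lay wholly lower in CFU, and its CFU against MkP difference was −0.73 (SE 0.11, adjusted p = 3.70e-06). It kept that direction and its call under all 17 other settings, at −0.88 to −0.71. The other loader subunits were higher in CFU than in MkP, by 0.83 for Rfc3, 1.55 for Rfc4 and 0.70 for Rfc5. In the GENCODE M21 annotation, exons of Lat2 overlap 15.1% of the exonic bases of Rfc2, and the part of such reads was not tested.

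Strand-joining genes were higher in CFU than elsewhere. Fen1, the flap nuclease of Okazaki fragment maturation, had 4.90 to 14.3 CPM in HSC, 15.6 to 22.6 CPM in MkP and 49.3 to 67.97 CPM in CFU. It was 7.20-fold higher in CFU than in HSC. Its low level is uncertain, since exons of other genes (Tmem258 and Gm10143) overlap 84.2% of its exonic bases. Gins2 and Chaf1a share 67.3% and 52.5% of theirs with other genes, and the files do not say how shared reads were counted. Lig1, the ligase that seals the fragments, gave 1.51 from HSC to MkP and 0.64 from MkP to CFU.

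Among the genes of nucleotide supply and uracil removal, Rrm2 had the largest CFU against MkP difference of all members and Ung the smallest. Rrm2, the S-phase subunit of ribonucleotide reductase, had 12.3 to 107 CPM in HSC (median 35.1), 119 to 182 CPM in MkP (median 139) and 806 to 1118 CPM in CFU (median 868). It showed the largest CFU against HSC difference of all members, 19.9-fold (log2 4.32, SE 0.31, adjusted p = 1.65e-11), and was 6.22-fold higher in CFU than in MkP (adjusted p = 3.34e-08). From HSC to MkP it rose 3.21-fold (log2 1.68, SE 0.28, adjusted p = 5.07e-05). Its partner subunit Rrm1 was 7.28-fold higher in CFU than in HSC and Dut, which removes dUTP, 6.83-fold. Ung, the glycosylase that removes uracil from DNA, had 21.6 to 76.96 CPM in HSC, 87.7 to 103 CPM in MkP and 74.8 to 107 CPM in CFU. It was 2.32-fold higher in MkP than in HSC (log2 1.21, SE 0.21, adjusted p = 7.85e-05), and CFU against MkP gave 0.01 (SE 0.20, adjusted p = 0.978), with a sign that turned under 7 of 17 other settings.

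Genes of histone supply and assembly differed by unequal amounts. Slbp, which binds histone mRNA, had 75.6 to 187 CPM in HSC, 254 to 302 CPM in MkP and 556 to 654 CPM in CFU, and rose by 1.16 and 1.08 on the log2 scale. Chaf1b, a subunit of the CAF-1 histone chaperone, made the smallest MkP against HSC difference of all members, 0.48 (SE 0.08, adjusted p = 3.39e-05), followed by Rfc3 at 0.50 and Pole at 0.53. Chaf1b already had 101 to 139 CPM in HSC. Its partner Chaf1a gave 1.26 (SE 0.21).

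Per kilobase of median coding transcript length, Mcm7 had the highest level of the members in all 3 populations, at 306 ± 132 CPM per kb in HSC, 649 ± 48.1 in MkP and 1279 ± 80.3 in CFU (SD, n = 8 mice). Mcm4 and Tipin followed in HSC (195 ± 90.8 and 178 ± 72.7 CPM per kb) and in MkP (445 ± 15.8 and 487 ± 49.2). In CFU, Rrm2 (1066 ± 124 CPM per kb) and Tipin (1027 ± 77.8) came next. The lowest levels per length were those of Orc1 (2.23 ± 1.67), Mcm10 (3.66 ± 2.52) and Fen1 (3.67 ± 1.71) in HSC. They were those of Orc1 (5.87 ± 1.33), Fen1 (8.50 ± 0.97) and Gins2 (13.7 ± 1.59) in MkP, and of Pola1 (20.7 ± 4.61), Fen1 (25.99 ± 2.96) and Orc1 (26.1 ± 2.71) in CFU. Neighbours such as Mcm4 and Tipin in HSC, or Fen1 and Orc1 in CFU, differed by less than their SD. The top of the order depends on the length: with the longest transcript Pcna led in all 3 populations and Mcm7 ranked 4, because short annotated transcripts pull the median length of Mcm7, Mcm4 and Tipin down to 795, 658 and 400 bases.

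Other genes of replication, which are not members, moved in the same direction. Of a list of 45, 42 were higher and 2 lower in MkP than in HSC, and 42 higher and 3 lower in CFU than in HSC. In CFU against MkP 34 were higher and 2 lower. The shares of all genes called higher were 17.9%, 29.7% and 24.5%. Called lower were 2610, 6768 and 6010 of the 18611 genes. The list's medians were 1.06, 1.93 and 0.78. The largest MkP against HSC differences were those of Asf1b, a histone chaperone, at 2.22 (SE 0.25), Ticrr, which activates origins, at 2.18 (SE 0.43), and Dscc1, of an alternative clamp loader, at 1.90 (SE 0.30). In CFU the helicase gene Recql4 led, with 1.48 to 5.10 CPM in HSC, 10.8 to 18.2 in MkP and 63.01 to 87.1 in CFU, 22.7-fold higher in CFU than in HSC and 6.11-fold higher than in MkP. It was followed by Asf1b (3.02) and Donson (2.99) against HSC, and by Orc2 (1.92) and Donson (1.76) against MkP.

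The genes that went the other way were few and do not all act at forks. Samhd1, which degrades nucleotides, was lower in MkP than in HSC (−0.95, SE 0.16) and in CFU than in HSC (−0.63). Rrm2b, the reductase subunit used outside S phase, fell from 7.12 to 20.9 CPM in HSC to 2.78 to 6.65 CPM in CFU (log2 −1.61, SE 0.20) and was also lower in CFU than in MkP (−1.06). Its MkP against HSC difference of −0.55 (adjusted p = 0.0381) was lost without control mouse 2, 3 or 4, without depleted mouse 1, 2 or 3, and without the filter on low counts, at adjusted p of 0.0623 to 0.101. Pold4, a small subunit of polymerase delta, was lower in CFU than in HSC (−1.96, SE 0.17) and than in MkP (−1.91). Of 18 genes around E2F and the G1 to S transition, 13 were higher and 2 lower in MkP than in HSC, 15 and 2 in CFU than in HSC, and 10 and 2 in CFU than in MkP, with medians of 0.89, 1.22 and 0.33. Of all genes, 17.9%, 29.7% and 24.5% were called higher in these comparisons. Called lower were 2610, 6768 and 6010 of the 18611 genes, the last of these 32.3%.

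Single cells were compared after thinning each to 100000 counts, which left out 12 shallower cells. A median member had a count in 37.7% of 691 HSC, 71.04% of 1319 MkP and 97.7% of 646 CFU. Without thinning these were 59.5%, 83.4% and 99.1%. In HSC the shares ran from 9.11% ± 7.66 for Orc1 to 80.5% ± 9.48 for Pcna (SD, n = 8 mice), and 11 members were found in over 50% of cells. In MkP they ran from 20.9% for Orc1 to 98.0% for Rfc2, with 30 members over 50%, and in CFU from 64.7% for Gins3 to 99.9% for Mcm3. Mcm6, Pcna and Rfc2 were thus seen in most HSC, while Orc1, Mcm10 and Gins3 were seen in 9.11%, 11.4% and 14.3% of them. A count of Mki67, a gene of dividing cells, was found in 15.1% ± 8.004 of HSC, 48.8% ± 11.1 of MkP and 96.9% ± 3.20 of CFU.

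**Figure D3:**
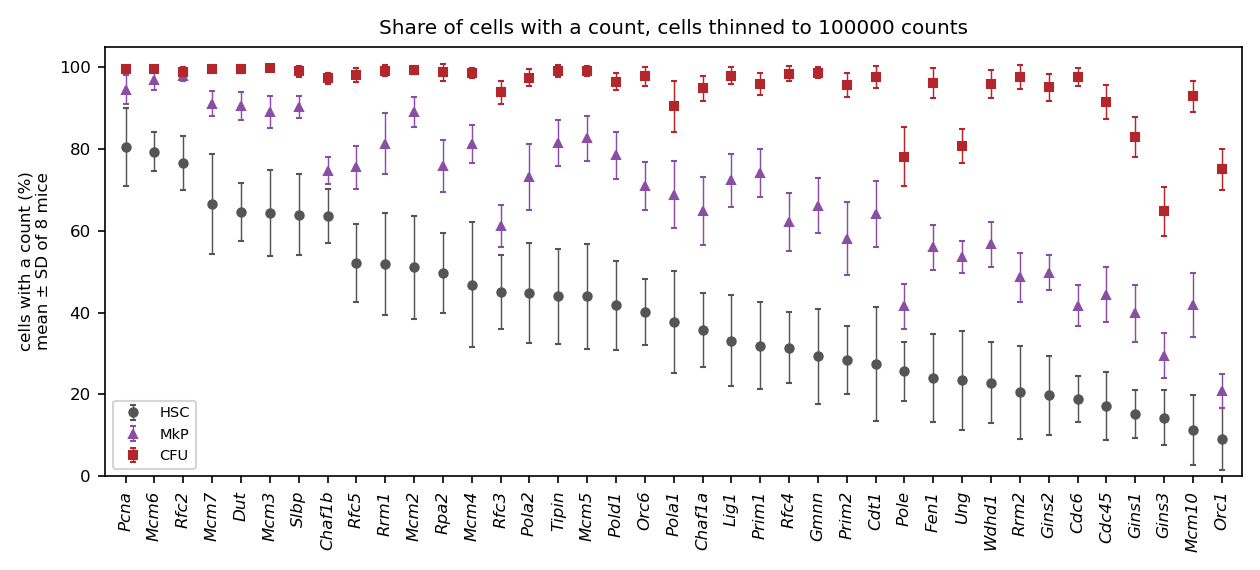
Share of cells with a count of each replication gene (vertical axis, %, mean ± SD of 8 mice) in HSC, MkP and CFU after thinning to 100000 counts, ordered by the share in HSC. CFU shares lie near the top for nearly all genes, while HSC shares run from 80.5% (Pcna) to 9.11% (Orc1).

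The number of members with a count per cell also differed between populations. The median number of genes detected per mouse, before thinning, was 5329.5 to 6808 in HSC, 5509 to 7171.5 in MkP and 7579 to 8508.5 in CFU. The part of this in the shares above and in the numbers of members per cell was not tested. The mean over the 8 mice was 15.5 ± 3.40 members per cell in HSC, 26.3 ± 1.83 in MkP and 36.9 ± 0.703 in CFU (SD). HSC had a median over cells of 12 of 39 members, with 10% of cells at 8 or fewer and 10% at 32 or more. MkP had a median of 28 with 12 and 37 at these limits, and CFU a median of 38. No cell had 0 members. At least 20 members were found in 152 of 691 HSC (21.997%), 975 of 1319 MkP (73.9%) and 639 of 646 CFU (98.9%). The limit of 20 was chosen after the values were seen, and 33 HSC and 123 MkP had 18 to 21 members.

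**Figure D4:**
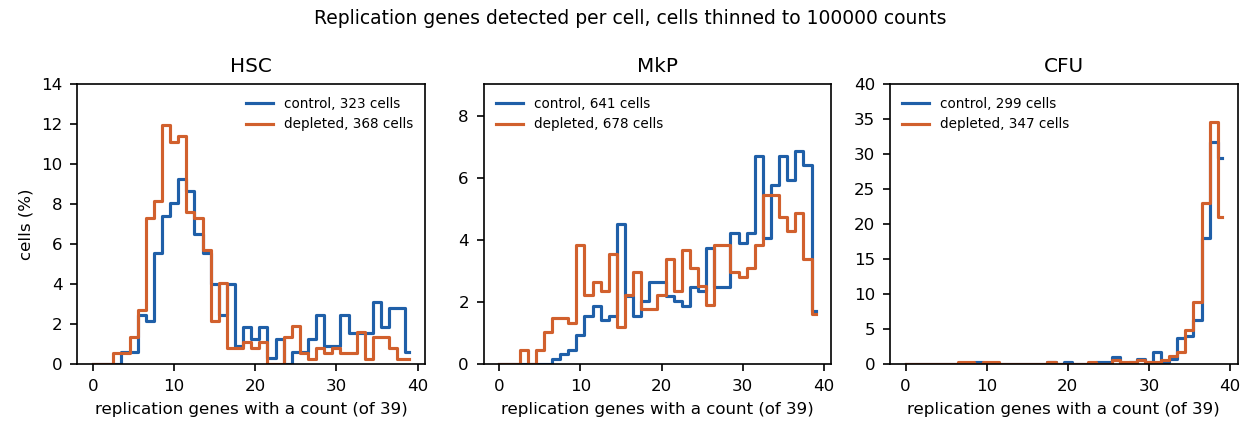
Distribution of the number of replication genes with a count per cell (horizontal axis, of 39; vertical axis, % of cells) in HSC, MkP and CFU of control (blue) and depleted (orange) mice, cells thinned to 100000 counts. HSC centre on a median of 12 genes with a tail up to 39, MkP are spread broadly around 28, and CFU crowd around 38.

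Within a population, cells high in 1 member tended to be high in the others. Spearman's rho of a member with the sum of the other 38 had a median of 0.42 over the members in 691 HSC, 0.58 in 1319 MkP and 0.40 in 646 CFU, given as a description. In HSC it was highest for Mcm2 (0.59) and lowest for Chaf1b (0.22). In MkP it was highest for Pcna (0.77) and lowest for Orc1 (0.31), and in CFU it ran from 0.17 for Pola1 to 0.71 for Rrm2. Cells of a mouse share their animal and experiment, so they are not independent points.

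In HSC and MkP, cells with a count of Mki67 held more replication RNA. In HSC the members summed to 6666 ± 1896 CPM of thinned counts in the 103 cells with Mki67 and to 2848 ± 720 CPM in the 588 without it (SD, n = 8 mice), with 24.6 and 13.9 members per cell. All 39 members were higher in the cells with Mki67, at a median ratio of 2.49. The ratio was 9.90 for Mcm10, 8.05 for Rrm2 and 6.66 for Cdc45, and 1.25 for Chaf1b. In MkP the sums were 9431 ± 861 CPM in 640 cells with Mki67 and 7585 ± 616 CPM in 679 without it, and the median ratio was 1.33. There Ung (0.79), Mcm2 (0.91) and Mcm6 (0.97) were the 3 members below 1, while Rrm2 stood at 3.97 and Mcm10 at 2.58. In CFU most cells had a count of Mki67, and the few cells without it came from 5 of the 8 mice. They summed to 8882 ± 3394 CPM, against 13148 ± 761 CPM in CFU with it, and 34 members were higher with Mki67 and 5 lower. The split was made in the same cells, so it is a description. The ratios were not taken over all genes, so no share stands beside these counts of members.

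Depletion of platelets was compared with control inside each population, 4 mice against 4. No member was called in any population with edgeR's test (0 of 39 in HSC, CFU and MkP). Over all genes, 0% of 17146 were called in HSC, 0% of 15661 in CFU and 0.0108% of 18512 in MkP. DESeq2, which calls 1.56% of all genes in HSC, 3.01% in CFU and 5.16% in MkP, called 1, 0 and 3 members. At an unadjusted p under 0.05, edgeR gave 7 members in HSC, 3 in CFU and 8 in MkP, against 8.56%, 11.9% and 13.7% of all genes.

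In HSC, 37 of 39 members had lower fitted levels in depleted mice, with a median log2 fold change of −0.53, beside 0.00 over all genes. The 2 others were Pole and Rfc2. The spread between control mice was wide. The members summed to 3116, 2414, 6126 and 5354 CPM in control mice 1 to 4 and to 3148, 3651, 2424 and 3197 CPM in depleted mice 1 to 4. Control mice 3 and 4 stood high, and control mice 1 and 2 lay within or near the range of the depleted mice. Cells with at least 20 members made up 20.9%, 12.7%, 45% and 41.03% of HSC in control mice 1 to 4, against 10.2% to 18.1% in depleted mice. The median number of genes detected was 5700, 6731, 6808 and 6794 in control mice 1 to 4 and 5329.5 to 5758 in the depleted mice. Its part in this share was not tested, so no order is read from the share. The 8 HSC markers, without TMM scaling, summed to 997, 1281, 618 and 639 CPM in control mice 1 to 4 and to 930 to 1032 CPM in the depleted mice, so the pair of HSC sums highest in replication genes was the lowest in HSC markers. The part of this in the difference was not tested. The 12 G2/M markers, also without TMM scaling, summed to 211, 220, 552 and 267 CPM in control mice 1 to 4, so that pair was also the higher among the controls, and to 332, 292, 109 and 501 CPM in depleted mice 1 to 4. On that scale the members summed to 3384, 2673, 6409 and 5839 CPM in control mice 1 to 4 and to 2961 to 3846 CPM in the depleted mice. The members' median log2 fold change was −0.35 without control mouse 3, −0.38 without control mouse 4 and −0.72 without control mouse 2. It was −0.59 without depleted mouse 4, whose HSC sum was high in neutrophil markers.

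The lowest p-values in HSC were those of Pola1, Pcna and Gmnn. Pola1 had 60.998, 55.2, 88.3 and 72.9 CPM in control mice and 39.7, 36.3, 23.2 and 39.4 CPM in depleted mice. It was the 1 member whose depleted values all lay below the controls, where 5.09% of all genes did so. Its difference was −1.01 (SE 0.21, adjusted p = 0.235 with edgeR). DESeq2 and a fit of all 6 groups called it, at adjusted p of 0.00225 and 0.0485. Pcna had 246, 182, 467 and 396 CPM in control and 176, 218, 131 and 189 CPM in depleted HSC, which overlapped, for a difference of −0.86 (SE 0.27, adjusted p = 0.453). Gmnn gave −0.81 (SE 0.28, adjusted p = 0.489).

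**Figure D5:**
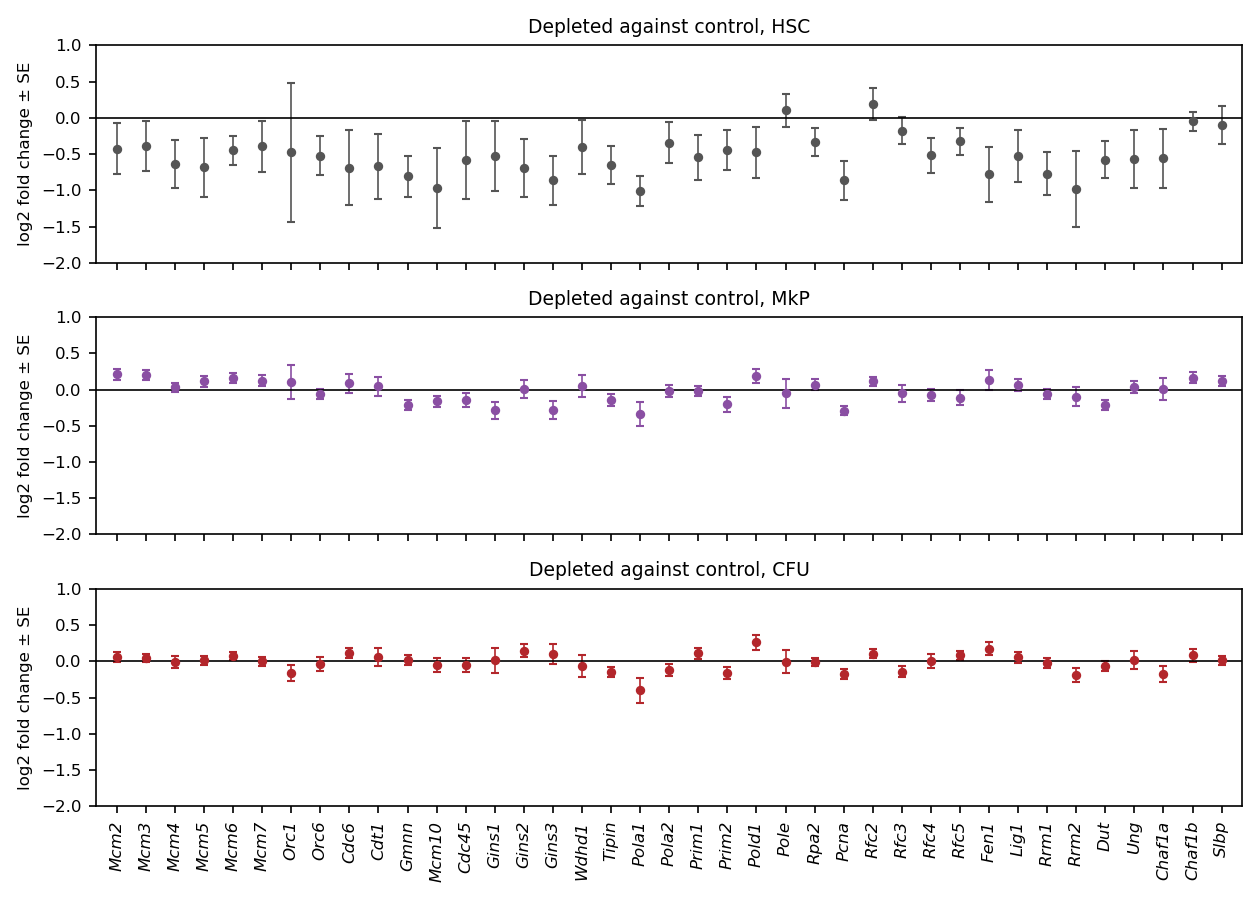
Log2 fold changes of depleted against control mice (vertical axes, ± SE, 4 mice against 4) for the 39 replication genes in HSC, MkP and CFU. HSC values lie mostly below 0 with wide errors, and MkP and CFU values scatter around 0.

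In MkP the members' median difference was 0.00, with 20 positive and 19 negative. Pcna had 568, 515, 578 and 549 CPM in control and 466, 432, 450 and 437 CPM in depleted mice, with no overlap. Its difference was −0.29 (SE 0.06, adjusted p = 0.148), and DESeq2 called it (adjusted p = 5.24e-04), as did edgeR with a floor of 8 CPM (0.0421). Gmnn had 101, 100.3, 105.4 and 97.4 CPM in control and 88.3, 80.9, 88.5 and 85.5 CPM in depleted mice, also without overlap, with −0.22 (SE 0.07, adjusted p = 0.239). Dut gave −0.21 (SE 0.07, adjusted p = 0.242). DESeq2 called Gmnn and Dut too, at 0.0177 and 0.0357. In all, 6 members (Mcm10, Pcna, Gins1, Gins3, Dut and Gmnn) lay wholly lower in depleted MkP, against 5.01% of all genes, and Mcm2 lay wholly higher, against 4.17%.

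Mcm2 in MkP had 535, 449, 484 and 508 CPM in control and 617, 551, 545 and 544 CPM in depleted mice, a difference of 0.21 (SE 0.08, adjusted p = 0.276). Mki67 pointed the other way in the same cells, with 191.8, 292.5, 177 and 228 CPM in control and 152, 110.5, 133 and 165 CPM in depleted MkP (−0.65, SE 0.17, adjusted p = 0.190). The G2/M list, without TMM scaling, summed to 1201 to 1632 CPM in control and 907 to 1254 CPM in depleted MkP. Members detected per thinned MkP cell averaged 27.8 ± 0.63 over control mice and 24.8 ± 1.30 over depleted ones (SD, n = 4), without overlap, while the members' summed level was 8362 ± 262 and 8463 ± 244 CPM. Without TMM scaling that level was 8660 ± 387 and 9226 ± 495 CPM. The number of genes detected before thinning was also lower in depleted MkP. Its part in the count per cell was not tested, so no order is read from that count.

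In CFU the members' median difference was 0.00 as well, with 20 positive and 19 negative. The lowest p-values were those of Pcna (−0.18, SE 0.07, adjusted p = 0.373), Pold1 (0.26, SE 0.11, adjusted p = 0.377) and Pola1 (−0.40, SE 0.17, adjusted p = 0.413). Pcna had 979, 941, 1051 and 1074 CPM in control and 873, 979, 856 and 1018 CPM in depleted CFU, which overlapped. Pold1 had 233, 205, 260 and 251 CPM in control and 337, 274, 280 and 293 CPM in depleted mice. Pold1 and Prim1 were the 2 members that lay wholly higher, against 4.68% of all genes. Pcna and Pola1 had negative fitted differences in all 3 populations, none of them called by edgeR in those fits.

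The treatment effects of the populations were compared as interaction terms, over 20852 genes. For MkP against HSC 0 of 39 members were called (0.0144% of all genes), and for CFU against HSC and CFU against MkP also 0 (0% of all genes). The lowest p-values for MkP against HSC were those of Fen1 (0.89, SE 0.32, adjusted p = 0.664), Mcm6 (0.58, SE 0.21, adjusted p = 0.664) and Rrm1 (0.69, SE 0.30, adjusted p = 0.752). For CFU against HSC they were those of Gmnn (0.88, SE 0.27, adjusted p = 0.326), Fen1 (1.01, SE 0.32, adjusted p = 0.344) and Gins3 (1.002, SE 0.32, adjusted p = 0.344). For CFU against MkP they were those of Gins3 (0.46), Rfc5 (0.27) and Gmnn (0.32), each at an adjusted p of 0.9999. Taking unadjusted p under 0.05, these terms gave 5, 13 and 0 members, against 6.05%, 9.05% and 5.89% of all genes. DESeq2 called 0 members in each, and 1.51%, 2.82% and 2.19% of all genes. The comparisons against HSC share the HSC sums, so their values are not independent of each other.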

How the data were processed

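Per the labels' protocols, crushed marrow was stained, sorted as single cells and made into Smart-seq2 and Nextera libraries. The submitters' processing notes name Trim Galore 0.5, STAR 2.6.0 and HTSeq 0.6.1; the genome build, annotation and strand setting were not given in the sources used here. The authors deposited raw counts per gene and well, 55401 rows by 3070 columns, of which 1 column matched no sample and was not used. Rows that shared a symbol were added together. A deposited table of other per-well fields by the authors was used only for its mouse code, which matched the code opening the sample title in 2859 of 2859 matched wells; the code was taken as the mouse.

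Wells were kept at 20000 or more counts, 1000 or more genes and at most 20% mitochondrial counts. Counts were summed per mouse and population (24 sums) and tested with edgeR 4.0.16 in R 4.3.3 (TMM, default expression filter, quasi-likelihood test, adjusted p under 0.05 over all genes). Populations were fitted over 24 sums with treatment as covariate, treatment within each population over 8, and interactions over 6 groups. Standard errors were taken as the absolute log2 fold change over the root of the F statistic. DESeq2 1.42.0 was an alternative. For cell-level descriptions each cell was thinned to 100000 counts. Lengths and exon overlaps come from GENCODE M21 by symbol, promoters from RefSeq. Fits were tested on simulated data. Reads without molecular identifiers are not independent molecules. Doublets were not called, since cells were sorted singly.

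The 3 populations of a mouse come from 1 animal, so the mouse number pairs them. Residuals of the same mouse correlated at 0.02 to 0.08 between populations. Beyond the mouse code, nothing says that animals were handled separately, so p-values measure the spread between these mice. The members, gene lists and tests were chosen with earlier results of these data known. All 39 members were counted; named in full were Mcm2 to Mcm7, Pcna, Rrm2, Cdc6, Cdt1, Gmnn, Slbp and Ung, the 3 largest changes each way per population comparison, the 3 lowest p-values per treatment comparison, and the 3 highest and lowest levels per length. Further members were named after their values were seen. Alternatives were another scaling, other filters on genes and cells, thinning, each mouse left out, the mouse as a block and other sets of sums.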

Additional observations from a re-analysis of the deposited data

Results flagged for a closer look

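Among the 234 sets of 4 mice (39 genes in 6 groups), 8 had 1 mouse far from the other 3; chance alone flags about 1 in 20 sets. In control HSC, Gins3 stood at 12.6 CPM in mouse 1 against 21.2 to 21.6 CPM in the others, and Rfc3 at 51.1 CPM in mouse 2 against 73.2 to 77.4 CPM. In control MkP, Gins2 reached 63.3 CPM in mouse 3 (others 48.8 to 51.1 CPM) and Gins3 37.4 CPM in mouse 4 (30.7 to 31.4 CPM). In depleted MkP, Mcm2 reached 617 CPM in mouse 1 (544 to 551 CPM). In control CFU, Mcm4 reached 652 CPM in mouse 4 (529 to 541 CPM). In depleted CFU, Mcm2 stood at 867 CPM in mouse 2 (915 to 924 CPM) and Cdc6 at 415 CPM in mouse 3 (439 to 442 CPM).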

How the results depend on the processing

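The number of members called between populations held under all alternatives: 39 for MkP against HSC (38 to 39 with single mice left out), 39 for CFU against HSC (39 to 39) and 32 to 36 for CFU against MkP (33 to 34 with single mice left out), always with Rfc2 as the 1 lower member. With the mouse as a replicate block the counts were 39, 39 and 34, and 0 for each interaction; no call of a count changed. For depleted against control, DESeq2 called 1 member in HSC and 3 in MkP, the fit of all 6 groups called 1 in HSC and a floor of 8 CPM called 1 in MkP; single mice left out gave 0 in every treatment comparison. Ung in CFU against MkP turned sign with DESeq2 (−0.025), relative log expression (−0.025), a floor of 8 CPM (−0.13), the 2 populations alone (−0.0049) and without control mouse 1, depleted mouse 1 or depleted mouse 3; single mice left out gave −0.015 to 0.078, and the cause was not tested. Depth limits the cell-level values. The median member's share was 59.5% in HSC and 83.4% in MkP without thinning, and 93.5% in CFU and 60.2% in MkP at 20000 counts. Mean members per cell over mice (15.5, 36.9 and 26.3 in HSC, CFU and MkP) were 23.5 in HSC, 37.8 in CFU and 30.4 in MkP without thinning, 33.5 in CFU and 23.3 in MkP at 20000 counts, and 35.4 and 24.5 with 3 counts required. The median level per kb was 126 in CFU and 69.97 in MkP with the longest transcript, and 143 in CFU as a mean of per-cell CPM. Median rho at 20000 counts was 0.40 in HSC, 0.31 in CFU and 0.52 in MkP.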
